A study of Mus musculus with 17 samples.

Results

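DNA replication genes were followed through reprogramming in mouse cells: 47 genes that license origins, unwind and copy DNA, load the sliding clamp, join Okazaki fragments, supply deoxynucleotides and rebuild chromatin behind the fork. They were chosen by gene symbol from known function, and all 47 were found among the 28670 genes of the files. RNA-seq came from 17 samples in 7 groups. Nanog-null iPSC clones G2 and G5 (induced pluripotent stem cells, Nanog -/-, passage 6), Nanog-null ESC (embryonic stem cells, Nanog -/-, passage 6) and WT piPSC (partially reprogrammed cells, clone B1, passage 6) gave 2 samples each. WT iPSC gave 3 samples (replicate 1 at passage 6, replicates 2 and 3 at passage 10 to 15), WT ESC gave 4 (passage 10 to 15) and WT MEF (embryonic fibroblasts, passage 2) gave 2. Per the labels' protocols, Nanog-null fibroblasts were sorted by a constitutive GFP at embryonic age E12.5 from embryos that grew from blastocysts injected with Nanog-null ESC. Retroviruses carrying Oct4, Sox2 and Klf4 (c-Myc in some) were used, and colonies were picked on day 20. Nanog-null ESC and picked iPSC colonies grew on feeder cells in 2i and LIF, and fibroblasts in medium with serum. Each Nanog-null iPSC group and the piPSC group is therefore a single clone. The sample codes split the libraries into 11 of batch AC, all of strain 129/B6 (v6.5), and 6 of batch JI, all c57/b6. Differences of batch and of strain cannot be told apart. WT iPSC 1 and WT ESC 1 and 2 lie in AC. WT iPSC 2 and 3, WT ESC 3 and 4 and both WT MEF samples lie in JI, and all other samples in AC.

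Replication starts when the origin recognition complex (ORC) binds DNA and, with Cdc6 and Cdt1, loads the MCM2-7 ring in G1, while geminin (Gmnn) holds Cdt1 inactive after S phase has begun. Cdc45 and the GINS complex turn the ring into an active helicase, and polymerases alpha, delta and epsilon, the clamp Pcna and its loader RFC copy both strands. Many of these genes are transcribed around the G1/S boundary by E2F factors, and mouse ESC are known for a short G1 and a large share of cells in S phase.

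The promoters of 4 members whose RNA is described below are shown because each holds letters of an E2F-type motif. RefSeq windows of 250 bases before to 50 bases after the start (build GRCm38.p6) were given for 38 of the 47 genes. E2F-type letters (TTTCCCGC, TTTGGCGC, TTTCGCGC or TTTGCCGC, on either strand) stood in 14 of the 46 windows of these genes (30.4%), and in 744 of all 32851 windows (2.26%). The genes were Orc1, Orc3, Cdc6, Cdt1, Mcm3, Mcm5, Mcm6, Mcm7, Gins3, Pola1, Pold1, Pole2, Rfc3 and Lig1. CCAAT stood in 26 of the 46 windows (56.5%, against 37.4% of all windows), and the cell cycle homology region letters TTTGAA or TTCGAA in 7 (15.2%, against 19.2%). A match of letters describes the sequence and does not show that a factor binds there. The bases just before each start are printed along the gene's own strand, with E2F-type letters in capitals, from chr11:98907986-98908150 (plus strand, Cdc6), chr8:75109344-75109508 (plus, Mcm5), chr1:128359706-128359870 (minus, Mcm6) and chrX:93632156-93632320 (minus, Pola1).
Cdc6: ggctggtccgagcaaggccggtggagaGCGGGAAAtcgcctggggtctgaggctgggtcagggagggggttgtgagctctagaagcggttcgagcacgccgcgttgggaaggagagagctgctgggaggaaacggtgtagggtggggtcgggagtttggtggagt
Mcm5: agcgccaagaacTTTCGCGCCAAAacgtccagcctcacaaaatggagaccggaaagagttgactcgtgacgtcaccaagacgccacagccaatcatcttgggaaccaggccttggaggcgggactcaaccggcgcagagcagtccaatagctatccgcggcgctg
Mcm6: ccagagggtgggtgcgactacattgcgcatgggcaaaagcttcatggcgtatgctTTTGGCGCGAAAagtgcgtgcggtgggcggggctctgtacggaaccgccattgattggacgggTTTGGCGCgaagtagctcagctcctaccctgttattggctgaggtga
Pola1: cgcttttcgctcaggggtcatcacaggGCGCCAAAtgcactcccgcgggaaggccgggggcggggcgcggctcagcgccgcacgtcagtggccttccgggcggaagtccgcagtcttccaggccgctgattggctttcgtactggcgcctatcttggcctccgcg
In Mcm5 and in the first stretch of Mcm6, a pair of the motifs overlap, one on each strand. The second stretch of Mcm6 begins 47 bases before the start. The printed Cdc6 bases lie within an intron of another annotated Cdc6 transcript.

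Levels are FPKM (fragments per M, or mega, fragments and kilobase of gene, on the authors' scale), given per sample in replicate order. Log2 changes are of FPKM + 1, ± SE from a limma fit over all 17 samples with a term for batch. A gene rose or fell where the limma p, adjusted by Benjamini and Hochberg over 15298 genes, was under 0.05. Libraries held 7.80 to 43.5 M assigned fragments. Nanog, the targeted gene, stood at 27.2 to 49.5 FPKM in the 6 Nanog-null samples, against 270 to 762 in WT ESC and WT iPSC, a whole-gene value that does not check the deleted part. Genes for ribosomal proteins took 5.77% to 6.28% of fragments in Nanog-null samples, against 8.53% to 10.5% in the 3 AC libraries of WT ESC and WT iPSC and 21.2% to 28.7% in the 4 JI libraries. Of 18 fibroblast markers, 16 rose in Nanog-null iPSC and 17 in Nanog-null ESC, and all 6 primitive endoderm markers rose in both. These calls are from the fit with the batch term. For Vim, Tagln, Acta2 and Thy1, every Nanog-null sample lay above pluripotent WT cells of batch AC but below those of JI. Vim had 144 to 254 FPKM in Nanog-null samples, against 49.9 to 96.4 (AC) and 728 to 1000 (JI). For Col1a1, every Nanog-null sample lay above both. Of all genes tested, 28.7% rose in Nanog-null iPSC and 27.4% in Nanog-null ESC. Separate cultures for the replicates are not stated in the labels, and p-values cover the spread between these libraries alone. In bulk RNA, fewer cells of a type and less RNA per cell cannot be told apart.

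The median of the 47 genes set pluripotent WT, Nanog-null, partially reprogrammed and fibroblast samples apart. It was 29.4 and 29.8 FPKM in clone G2, 33.7 and 36.5 in clone G5, 32.8 and 33.2 in Nanog-null ESC and 23.2 and 24.4 in piPSC. It was 47.9, 76.4 and 72.8 in WT iPSC, 54.3, 58.9, 71.8 and 61.9 in WT ESC, and 15.7 and 15.4 in WT MEF. By this FPKM median, every WT ESC and WT iPSC sample lay above every Nanog-null sample, these above piPSC, and piPSC above fibroblasts. As a share of assigned fragments the groups overlapped: the 47 genes took 0.533% and 0.549% in Nanog-null ESC, against 0.531% to 0.618% in the JI libraries of WT ESC and WT iPSC and 0.776% to 0.836% in their AC libraries. Pcna, the sliding clamp, had the highest FPKM of the 47 genes in all 17 samples. Gins3, a GINS subunit, had the lowest in 15 samples, and Orc1 in piPSC 2 and MEF 2. Within batch AC, piPSC had the lowest group mean for 34 genes and clone G2 for 10, among them Mcm6, Cdc45, Rrm1, Rrm2 and Tipin. The highest mean was that of WT ESC for 29 genes and of WT iPSC for 16, with Gins3 highest in clone G5 and Rfc1 highest in piPSC.

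**Figure D1:**
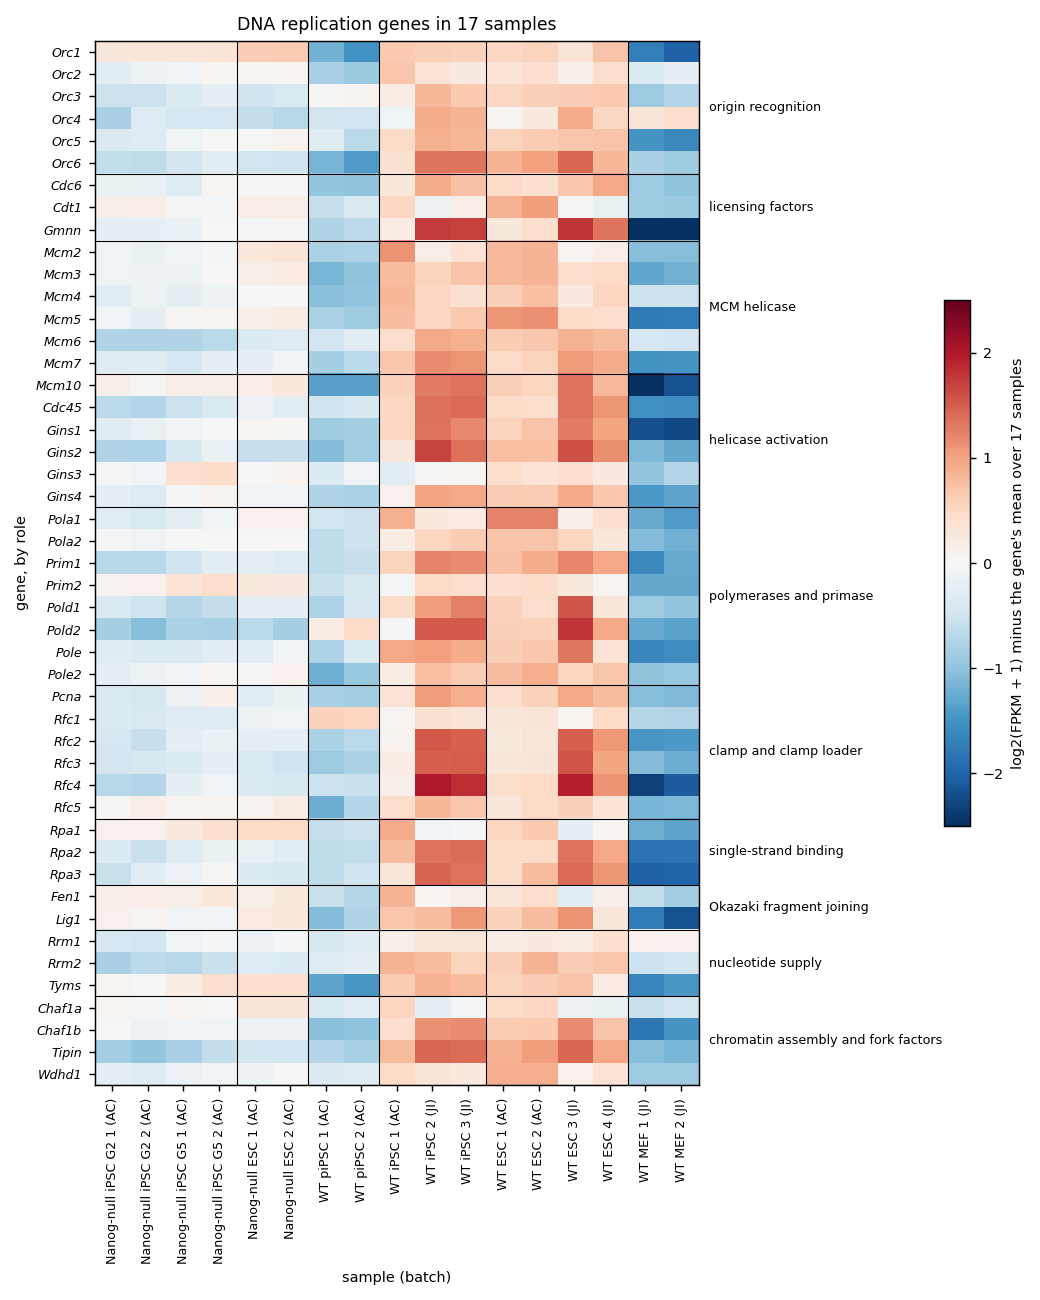
Each row is 1 of the 47 genes, grouped by role, each column 1 of the 17 samples, and colour gives log2(FPKM + 1) minus the gene's mean over samples. Below every WT ESC and WT iPSC column lie all Nanog-null columns in 38 rows, both piPSC columns in 44 and both WT MEF columns in 46, while WT MEF is not the lowest group in every row (Orc4, Rrm1, Mcm6 and Rrm2 are examples).

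**Figure D2:**
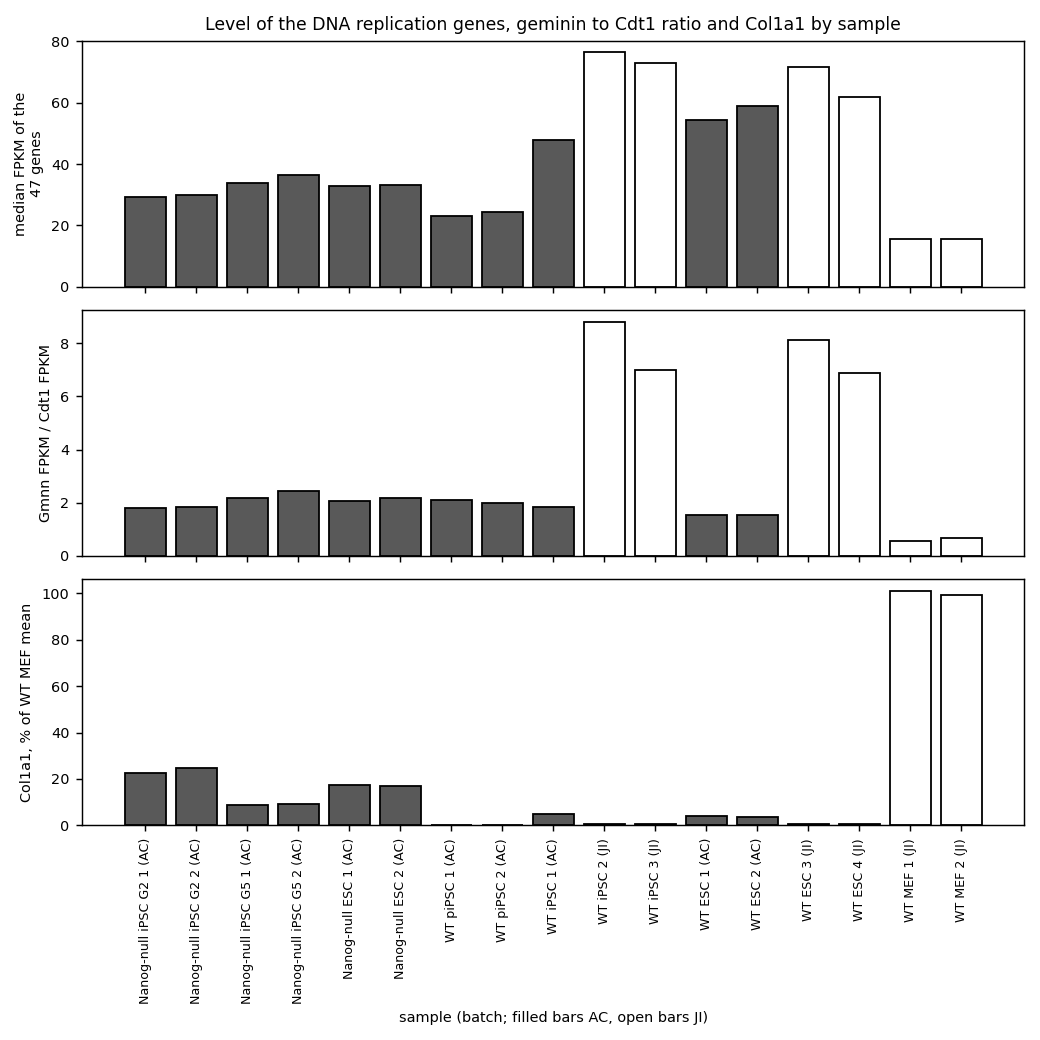
Bars give, for each of the 17 samples, the median FPKM of the 47 genes, the ratio of Gmnn to Cdt1 FPKM, and Col1a1 as a percentage of its WT MEF mean (filled bars, batch AC; open bars, batch JI). The median runs from 15.4 in WT MEF to 76.4 in WT iPSC 2, and the Gmnn to Cdt1 ratio is at least 6.88 only in WT ESC 3 and 4 and WT iPSC 2 and 3. Col1a1 is 1 of 18 fibroblast markers, and Vim, Tagln, Acta2 and Thy1 do not follow it in batch JI.

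Nanog-null and WT cells were compared within each cell type, Nanog-null iPSC (both clones) with WT iPSC and Nanog-null ESC with WT ESC. Genotype cannot be told apart here from clone or line. In ESC it also cannot be told apart from passage (6 in Nanog-null ESC, 10 to 15 in WT ESC). Of the 47 genes, 45 fell and 0 rose in Nanog-null iPSC, where 28.7% of all genes tested fell and 28.7% rose. Nanog-null ESC had 35 falls and 0 rises, where 26.4% of all genes fell and 27.4% rose. The median log2 change of the 47 genes was -0.73 in iPSC and -0.66 in ESC, beside -0.02 and -0.01 over all genes, and 13.6% and 14.9% of all genes lay below those medians. The 6 Nanog-null samples were below all 7 WT ESC and WT iPSC samples for 38 of the 47 genes (16.9% of all genes tested), and below the 3 AC samples of these WT groups for 44 (27.1%), the exceptions being Orc1, Gins3 and Prim2. The count of 38 is on FPKM. Fragments per M were compared only for the 7 genes whose fragments per unit of FPKM varied over 1.5-fold between libraries. Of these, Orc4 and Gins2 were below all 7 WT samples on that scale, and Mcm10, Pold1, Pole, Rfc5 and Lig1 were not. The rest of the 47 genes were not compared on that scale. In batch AC alone, 43 genes fell and 2 rose (Gins3 and Prim2) in Nanog-null iPSC, where WT iPSC is 1 sample and 67% of all genes passed in either direction, and 42 fell in Nanog-null ESC, where 68.9% of all genes passed. Col1a1, the collagen of fibroblasts, stood at 22.4% and 24.5% of its WT MEF mean in clone G2, 8.63% and 9.17% in G5 and 17.2% and 16.8% in Nanog-null ESC, against 3.78% to 5.08% (AC) and 0.490% to 0.681% (JI) in WT ESC and WT iPSC. Col1a1 does not stand for every fibroblast marker. Tagln had 43.2 to 62.4 FPKM in the Nanog-null samples. Pluripotent WT cells had 7.26 to 10.2 FPKM of Tagln in batch AC, but 527 to 730 in JI. Vim, Acta2 and Thy1 were likewise lower in all Nanog-null samples than in these JI cells, whereas Col1a1 was higher. The part of fibroblast RNA in the lower replication gene levels was not tested.

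The 6 subunits of the MCM2-7 helicase ring all fell in both Nanog-null cell types, with median log2 changes of -1.01 in iPSC and -0.68 in ESC. Mcm6 stood at 54.0 and 54.4 FPKM in clone G2 and 54.3 and 57.4 in G5, against 125, 179 and 171 in WT iPSC. Nanog-null ESC had 72.6 and 73.8 FPKM of Mcm6, against 144, 147, 168 and 161 in WT ESC. The groups did not overlap in either cell type, and limma gave log2 changes of -1.29 ± 0.09 in iPSC (adjusted p = 1.1e-07) and -0.92 ± 0.09 in ESC (adjusted p = 3.7e-06). Mcm5 had 84.7 and 77.4 FPKM in G2 and 91.4 and 94.2 in G5, against 154, 129 and 141 in WT iPSC. Its values in Nanog-null ESC were 97.4 and 101 FPKM, against 192, 198, 123 and 118 in WT ESC. Its groups also stood apart, with log2 changes of -1.02 ± 0.11 in iPSC and -0.87 ± 0.11 in ESC. Mcm2 was lower in the Nanog-null iPSC samples (56.1 and 53.2 FPKM in G2, 55.5 and 58.6 in G5) than in WT iPSC (132, 66.8 and 77.5), a log2 change of -1.16 ± 0.08. Nanog-null ESC had 71.9 and 74.7 FPKM of Mcm2, against 106 and 109 (AC) and 62.9 and 67.5 (JI) in WT ESC. Here the Nanog-null samples were below the AC pair and above the JI pair, and the fall of 0.58 ± 0.08 on the log2 scale was lost without the batch term (-0.19, limma adjusted p = 0.61). Mcm3, Mcm4 and Mcm7 fell by 0.94 to 0.99 in iPSC and by 0.61 to 0.70 in ESC on the log2 scale, and no sample overlapped. Of all genes, 24.5% (iPSC) and 27.6% (ESC) were lower in every Nanog-null sample.

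**Figure D3:**
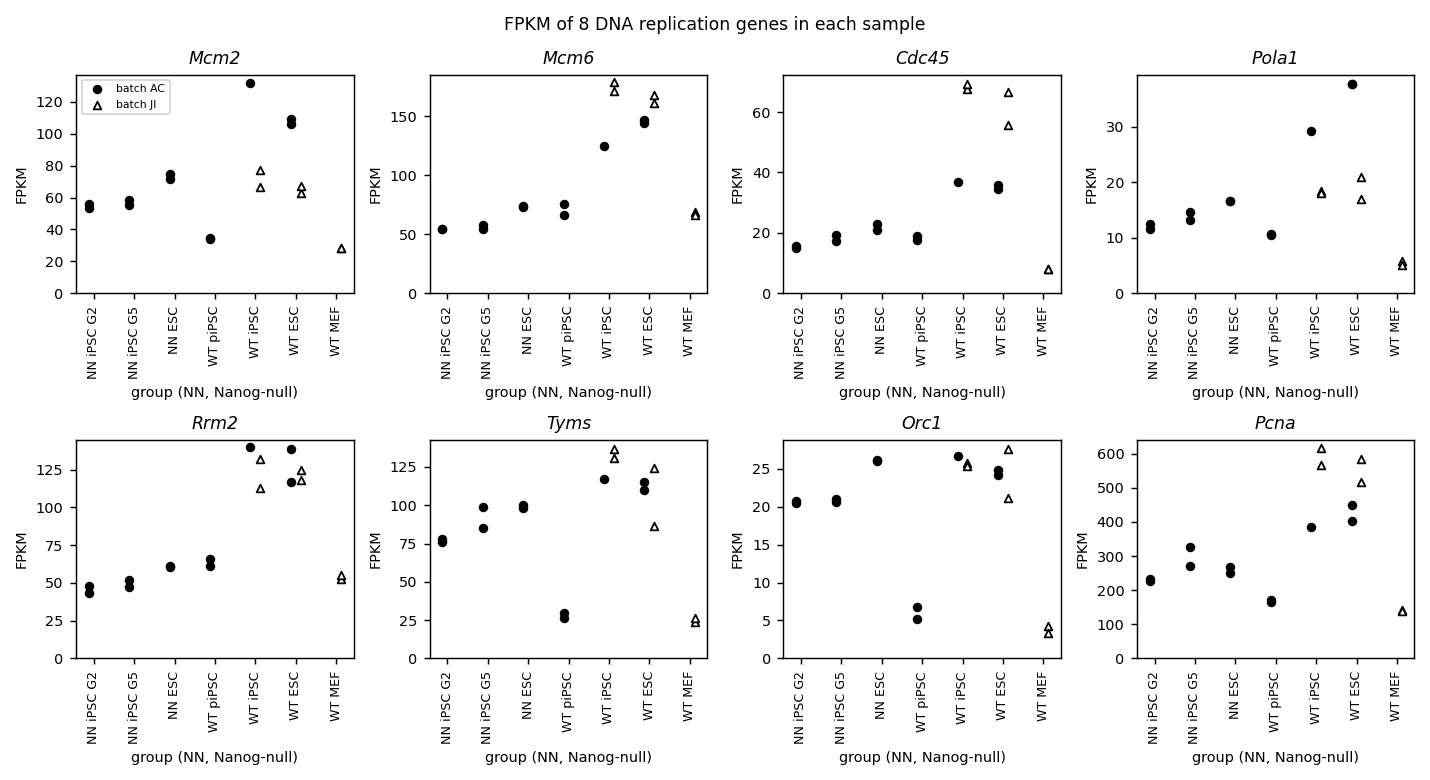
Each panel gives the FPKM of 1 gene (Mcm2, Mcm6, Cdc45, Pola1, Rrm2, Tyms, Orc1 and Pcna) in every sample by group, with filled circles for batch AC and open triangles for batch JI. Mcm6 and Rrm2 lie lower in all Nanog-null samples than in any WT ESC or WT iPSC sample, while Orc1 in Nanog-null ESC (26.0 and 26.1 FPKM) lies within the range of WT ESC (21.1 to 27.6).

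Origin recognition genes fell less evenly. Orc6, the smallest ORC subunit, stood at 34.1 and 33.6 FPKM in G2 and 38.1 and 42.8 in G5, against 68.7, 135 and 134 in WT iPSC. It had 37.8 and 37.2 FPKM in Nanog-null ESC, against 97.6, 108, 144 and 94.5 in WT ESC. These groups did not overlap, and Orc6 had the largest change of the complex in both cell types (log2 -1.19 ± 0.19 in iPSC and -1.27 ± 0.20 in ESC, limma adjusted p = 0.00017 and 0.00014). Orc1, the ORC subunit whose level follows the cell cycle, had 20.5 to 21.0 FPKM over the 4 Nanog-null iPSC samples, against 26.7, 25.7 and 25.3 in WT iPSC. Nanog-null ESC had 26.0 and 26.1 FPKM of Orc1, against 24.2, 24.9, 21.1 and 27.6 in WT ESC. Orc1 was lower in every Nanog-null iPSC sample (log2 -0.33 ± 0.12, limma adjusted p = 0.036), a call lost whichever WT iPSC or Nanog-null iPSC sample was left out (adjusted p = 0.050 to 0.17) and without the batch term (0.052). In ESC it was not called (0.07 ± 0.13, limma adjusted p = 0.65), with samples within the WT range. Relative to the mean of Orc2 to Orc6, Orc1 was 0.626 to 0.841 in the 6 Nanog-null samples, against 0.407 to 0.546 (AC) and 0.289 to 0.448 (JI) in WT ESC and WT iPSC. This ratio of FPKM values was thus higher in every Nanog-null sample, and Orc2 to Orc6 all fell in both Nanog-null cell types. The ESC call of Orc2 was lost without Nanog-null ESC 1 (limma adjusted p = 0.070), without Nanog-null ESC 2 (0.056) and without the batch term (0.16).

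The licensing factors fell moderately. Cdc6, the loader of the MCM ring, had 13.6 and 13.6 FPKM in G2 and 12.2 and 16.0 in G5, against 18.9, 29.8 and 25.9 in WT iPSC. Nanog-null ESC had 14.7 and 15.5 FPKM of Cdc6, against 21.7, 20.4, 25.1 and 30.9 in WT ESC. The groups stood apart in both cell types, with log2 changes of -0.49 ± 0.12 in iPSC and -0.43 ± 0.12 in ESC. The ESC call (limma adjusted p = 0.011) was lost without WT ESC 1 (0.051) or Nanog-null ESC 1 (0.077). Cdt1 had 35.8 and 36.1 FPKM in G2 and 31.3 and 31.0 in G5, against 46.9 (AC), 29.4 and 36.1 (both JI) in WT iPSC. The Nanog-null ESC samples had 36.1 and 35.7 FPKM, against 59.4 and 67.2 (AC) and 32.8 and 28.1 (JI) in WT ESC. Cdt1 was therefore below the WT samples of batch AC, the batch of all Nanog-null samples, but not below both of those of JI. Its falls (log2 -0.68 ± 0.13 and -0.69 ± 0.14) were lost without the batch term (-0.13 and -0.28, limma adjusted p = 0.70 and 0.49). Gmnn had 64.8 to 76.4 FPKM over the 4 Nanog-null iPSC samples, against 87.1, 259 and 252 in WT iPSC, and fell by 0.47 ± 0.14 on the log2 scale. Nanog-null ESC had 74.2 and 77.4 FPKM of Gmnn, against 92.7, 104, 266 and 193 in WT ESC, and the gene was not called (-0.30 ± 0.14, limma adjusted p = 0.083), though no sample overlapped. Gmnn passed in batch AC alone (-0.37, limma adjusted p = 0.0027).

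Of the genes that activate the helicase, 5 of 6 fell in Nanog-null iPSC and 4 of 6 in Nanog-null ESC. Cdc45 had 15.6 and 14.9 FPKM in G2 and 17.2 and 19.4 in G5, against 36.7, 67.7 and 69.4 in WT iPSC. Its values in Nanog-null ESC were 22.8 and 20.9 FPKM, against 36.0, 34.6, 66.8 and 55.6 in WT ESC. No samples overlapped, and Cdc45 fell by 1.14 ± 0.09 in iPSC and by 0.65 ± 0.10 in ESC (log2; limma adjusted p = 4.6e-07 and 9.9e-05). Gins2 had 29.9 and 30.1 FPKM in Nanog-null ESC, against 76.9, 76.7, 141 and 103 in WT ESC, a log2 change of -1.21 ± 0.17. The number of fragments behind 1 unit of FPKM varied 2.21-fold between libraries for Gins2, and edgeR on the fragments gave a smaller change of -0.44. Gins3 did not fall with its complex in iPSC, and only its G5 samples were above the WT iPSC range. It had 6.52 and 6.36 FPKM in G2 and 9.12 and 9.59 in G5, against 5.44, 6.88 and 7.03 in WT iPSC, and was not called (log2 0.29 ± 0.12, limma adjusted p = 0.058). Nanog-null ESC had 6.68 and 7.16 FPKM of Gins3, against 9.44, 8.79, 9.23 and 7.97 in WT ESC, also not called (-0.28 ± 0.13, limma adjusted p = 0.083). In batch AC alone, where WT iPSC is 1 sample, the log2 change of Gins3 was 0.45 in iPSC and -0.35 in ESC.

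Polymerase and primase genes had the lowest median log2 change of any role in Nanog-null iPSC (-1.14, 7 of 8 fell) and -0.76 in Nanog-null ESC (6 of 8 fell). Pola1, the catalytic subunit of polymerase alpha, had 12.4 and 11.6 FPKM in G2 and 13.1 and 14.6 in G5, against 29.3, 18.5 and 18 in WT iPSC. Its values in Nanog-null ESC were 16.6 and 16.7 FPKM, against 37.8, 37.7, 16.9 and 21.0 in WT ESC. Every Nanog-null sample was below the WT samples of its cell type. Pola1 fell by 1.25 ± 0.11 in iPSC and by 1.07 ± 0.11 in ESC (log2), and the ESC call was lost without the batch term (-0.65, limma adjusted p = 0.11). The primase subunits differed from each other. Prim1, the catalytic subunit, had 22.0 and 21.9 FPKM in G2 and 25.3 and 29.7 in G5, against 53.6, 86.9 and 82.9 in WT iPSC, and fell by 1.25 ± 0.13 on the log2 scale. Prim2, its regulatory partner, had 23.4 and 23.7 FPKM in G2 and 27.9 and 30.1 in G5, against 21.0, 31.1 and 29.7 in WT iPSC (log2 -0.01 ± 0.15, limma adjusted p = 0.96). The 4 Nanog-null values of Prim2 lay within the range of WT iPSC. The direction for Prim2 depended on the WT sample: it was higher in batch AC alone (0.30, limma adjusted p = 0.0056) and lower without WT iPSC 1 (-0.48, limma adjusted p = 0.0034). Pold2, an accessory subunit of polymerase delta, had 28.3 and 25.3 FPKM in Nanog-null ESC, against 69.2, 68.2, 159 and 88.2 in WT ESC, and fell by 1.17 ± 0.23 on the log2 scale. Pole, the catalytic subunit of polymerase epsilon, had 13.7, 13.1, 13.2 and 14.1 FPKM in the Nanog-null iPSC samples, against 34.4, 36.0 and 33.6 in WT iPSC, and fell by 1.22 ± 0.22 on that scale. The Nanog-null ESC samples had 14 and 16.3 FPKM, against 26.8, 28, 44.2 and 21.8 in WT ESC, a fall of 0.85 ± 0.22 (limma adjusted p = 0.0063) that was lost without Nanog-null ESC 1 (0.057). The fragments behind 1 unit of FPKM varied 4.59-fold between libraries for Pole. In fragments per M, Nanog-null iPSC had 72.6 to 77.3, against 198 (AC), 46.2 and 45.6 (both JI) in WT iPSC. Nanog-null ESC had 87.6 and 93.8, against 155 and 151 (AC) and 45.5 and 60.9 (JI) in WT ESC. On that scale Pole was below the AC samples and above the JI samples.

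Clamp, loader and single-strand binding genes fell in Nanog-null iPSC without exception (6 of 6 and 3 of 3), and 5 of 6 and 2 of 3 fell in Nanog-null ESC. Pcna had 232 and 228 FPKM in G2 and 272 and 327 in G5, against 386, 617 and 568 in WT iPSC. Nanog-null ESC had Pcna values of 249 and 269 FPKM, against 403, 449, 586 and 518 in WT ESC. All Nanog-null samples were lower, with log2 changes of -0.65 ± 0.11 in iPSC and -0.66 ± 0.11 in ESC. Rpa1, the large subunit of the single-strand binding protein, was not called in Nanog-null ESC (-0.17 ± 0.10, limma adjusted p = 0.18), and neither was the loader subunit Rfc5 (-0.20 ± 0.14, 0.25). The ESC calls of Rfc1, Rfc2 and Rfc4 were lost without WT ESC 1 or 2 or either Nanog-null ESC sample (limma adjusted p = 0.056 to 0.091).

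Nucleotide supply, fork and chromatin genes held the falls of Tipin and Rrm2, the largest of the 47 genes in Nanog-null iPSC. Rrm2, the limiting subunit of ribonucleotide reductase, had 43.5 and 48.2 FPKM in G2 and 47 and 51.8 in G5, against 140, 132 and 113 in WT iPSC. Its values in Nanog-null ESC were 61.5 and 60.5 FPKM, against 117, 139, 118 and 125 in WT ESC. No Nanog-null value came near the WT range, and Rrm2 fell by 1.49 ± 0.10 in iPSC and by 1.08 ± 0.10 in ESC (log2; limma adjusted p = 7.6e-08 and 2.2e-06). Tipin, the partner of Timeless at the fork, had 35.3 and 33.0 FPKM in G2 and 36.7 and 42.6 in G5, against 113, 178 and 173 in WT iPSC. Nanog-null ESC had 47 and 46.5 FPKM of Tipin, against 122, 135, 178 and 129 in WT ESC. Tipin thus had the largest change of the 47 genes in both cell types, log2 -1.76 ± 0.13 in iPSC and -1.36 ± 0.14 in ESC (limma adjusted p = 2.8e-07 and 4.4e-06). Tyms, which makes thymidylate, had 78.1 and 75.7 FPKM in G2 and 85.3 and 98.9 in G5, against 117, 137 and 131 in WT iPSC, and fell by 0.60 ± 0.14 on the log2 scale. In Nanog-null ESC Tyms had 100 and 98.5 FPKM, against 110, 115, 124 and 86.5 in WT ESC. It lay within the WT range and was not called (-0.12 ± 0.14, limma adjusted p = 0.51). Chaf1a, the large subunit of chromatin assembly factor 1, had 16.4 to 17.9 FPKM in the 4 Nanog-null iPSC samples, against 25.2 (AC), 14.5 and 16.6 (both JI) in WT iPSC. Nanog-null ESC had 21.7 and 21.5 FPKM of Chaf1a, against 24.3, 24.8, 15.2 and 14.8 in WT ESC. As with Cdt1, these values were below the AC samples but not below both JI samples. Its fall in iPSC (-0.52 ± 0.08) was lost without the batch term (-0.07, limma adjusted p = 0.79), as were those of Rpa1 (-0.04, 0.90) and Fen1 (-0.17, 0.51). Fen1, the flap nuclease of Okazaki fragments, also lost its iPSC call without WT iPSC 1 (-0.37, limma adjusted p = 0.098). In Nanog-null ESC, Chaf1a (-0.17 ± 0.09, limma adjusted p = 0.11), Fen1 (-0.23 ± 0.14, 0.17) and Prim2 (-0.04 ± 0.16, 0.84) were not called. Mcm10 (-0.32 ± 0.15, 0.082), Pold1 (-0.67 ± 0.27, 0.054) and the ligase gene Lig1 (-0.42 ± 0.21, 0.12) were not called in limma either, but edgeR with TMM scaling on fragments called all 3 lower (adjusted p = 0.0074, 0.0051 and 0.0066).

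Partially reprogrammed cells were compared with WT iPSC, the same samples that served as the reference for the Nanog-null clones, so these comparisons are not independent. Of the 47 genes, 43 fell in piPSC, where 34.2% of all genes fell, and 1 rose, where 30.5% of all genes rose. The median log2 change was -1.31, beside -0.06 over all genes, and 11.3% of all genes lay below it. The 2 piPSC samples were below all 7 WT ESC and WT iPSC samples for 44 genes (29.7% of all genes) and below the 6 Nanog-null samples for 31 (39.4%). Of 10 pluripotency markers 9 fell in piPSC, and Nanog had 3.12 and 2.91 FPKM. The remaining marker, Pou5f1 (Oct4), went the other way, with 6980 and 7300 FPKM in piPSC, against 640, 1450 and 1430 in WT iPSC. Of 18 fibroblast markers 12 fell and 3 rose, and Col1a1 stood at 0.364 and 0.319 FPKM, 0.0294% and 0.0258% of its WT MEF mean. The part of these differences in cell identity in the lower replication gene levels was not tested.

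The MCM ring had the lowest median of the 10 roles in piPSC, at -1.81 on the log2 scale. Mcm2 had 34.0 and 34.5 FPKM and Mcm3 35.2 and 39.0 FPKM in piPSC, against 132, 66.8 and 77.5 (Mcm2) and 135, 117 and 130 (Mcm3) in WT iPSC. Mcm6 was the least changed of the ring, with 66.2 and 75.7 FPKM in piPSC, against 125, 179 and 171 in WT iPSC. Samples did not overlap for any of the 6 (34.7% of all genes were lower in both piPSC samples than in every WT iPSC sample), and the falls ran from 0.93 ± 0.10 (Mcm6) to 1.93 ± 0.10 (Mcm3) on the log2 scale. Mcm6 was the most abundant MCM subunit per length in piPSC and in WT MEF. Tyms fell most, to 29.6 and 26.6 FPKM in piPSC, against 117, 137 and 131 in WT iPSC (log2 -2.15 ± 0.16, limma adjusted p = 8.1e-08). Mcm10, which helps start the helicase, had 13.0 and 13.1 FPKM in piPSC, against 52.6, 87.7 and 91.8 in WT iPSC (log2 -2.03 ± 0.16, limma adjusted p = 1.9e-07). Orc1 had 6.74 and 5.18 FPKM in piPSC, against 26.7, 25.7 and 25.3 in WT iPSC (log2 -1.98 ± 0.14, limma adjusted p = 6.8e-08). These 3 genes were each below every WT iPSC sample, and Orc1 was also below every Nanog-null sample (20.5 to 26.1 FPKM). Orc6 fell by 1.97 ± 0.22 on the log2 scale, with 23.1 and 19.2 FPKM in piPSC, against 68.7, 135 and 134 in WT iPSC. Cdc6 had 7.35 and 7.11 FPKM, close to the 7.71 and 7.08 of WT MEF. Pcna had 170 and 164 FPKM in piPSC, against 386, 617 and 568 in WT iPSC, a fall of 1.30 ± 0.12 on the log2 scale.

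Rfc1, the large subunit of the clamp loader, was the 1 gene that rose in piPSC. It had 47.8 and 46.6 FPKM, against 33.1, 41.7 and 40.1 in WT iPSC, and no samples overlapped (log2 0.37 ± 0.13, limma adjusted p = 0.023). The call was lost in edgeR with TMM scaling (0.31, adjusted p = 0.056), without the batch term (0.30, 0.090) and without WT iPSC 1 (0.18, 0.34), piPSC 1 (0.35, 0.082) or piPSC 2 (0.39, 0.060). The other loader subunits fell. Rfc5 changed by -1.52 ± 0.16, Rfc3 by -1.17 ± 0.17, Rfc2 by -1.00 ± 0.14 and Rfc4 by -0.96 ± 0.24 on the log2 scale. Not called were Orc3 (-0.31 ± 0.13, limma adjusted p = 0.054), Gins3 (-0.12 ± 0.14, 0.48) and Pold2 (0.05 ± 0.26, 0.88). Orc3 was called lower in edgeR with TMM (-0.40, adjusted p = 0.015) and with DESeq2 size factors (-0.33, 0.032), and in limma without the batch term (-0.49, 0.027), with the replicate block (-0.27, 0.037) and without WT iPSC 1 (-0.60, 0.0014). Pold2 had 51.8 and 64.1 FPKM in piPSC, against 44.7 (AC), 133 and 134 (both JI) in WT iPSC, so its place depended on the batch.

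**Figure D4:**
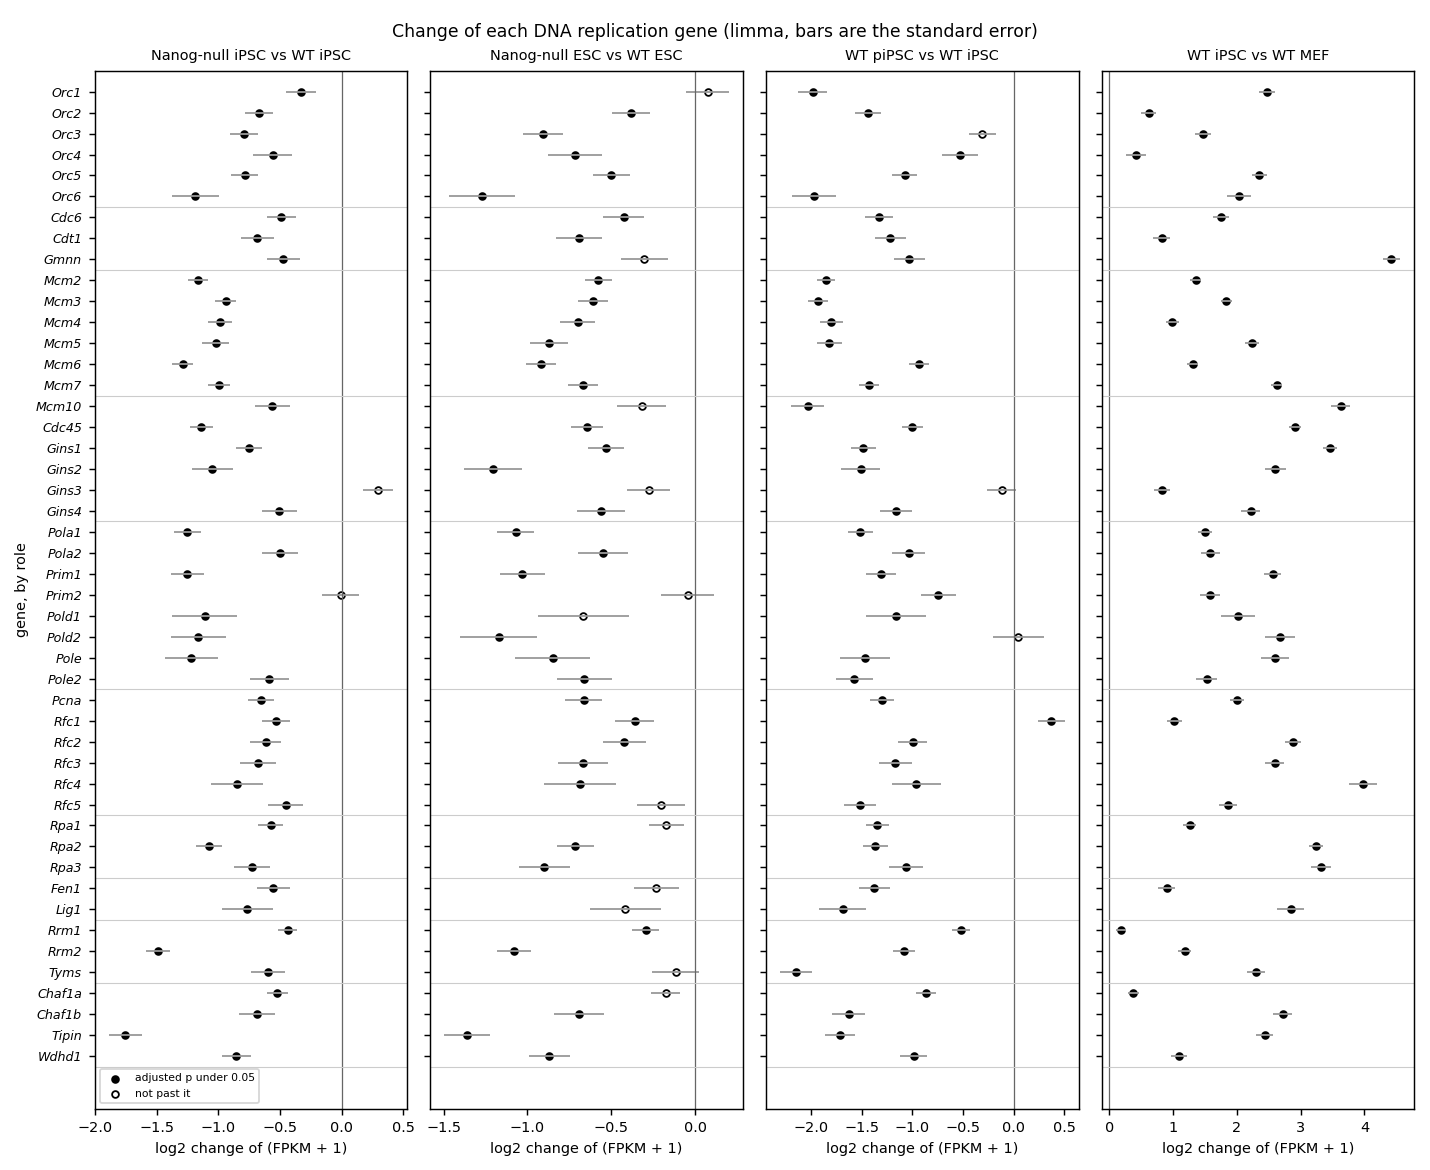
Points give the log2 change of FPKM + 1 of each of the 47 genes with its SE from limma in 4 comparisons (Nanog-null iPSC against WT iPSC, Nanog-null ESC against WT ESC, WT piPSC against WT iPSC, WT iPSC against WT MEF), filled where the adjusted p was under 0.05. In the first 3 nearly all points lie below 0, down to -1.76 (Tipin), -1.36 (Tipin) and -2.15 (Tyms), and in the last all lie above 0, from 0.18 (Rrm1) to 4.42 (Gmnn).

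Fully reprogrammed cells and ESC were each compared with fibroblasts, which share the WT MEF samples. All 47 genes rose in WT iPSC, where 41.4% of all genes rose, and all 47 in WT ESC, where 41.3% of all genes rose. Median log2 changes were 2.02 and 2.00, beside 0.07 and 0.04 over all genes, and 87.9% and 87.7% of all genes lay below them. The 2 MEF samples were below the 4 JI samples of pluripotent WT cells for all 47 genes (43.1% of all genes) and below all 7 WT samples for 46 (33.2%), Orc4 being the exception. By role, the medians in WT iPSC were highest for single-strand binding (3.23) and helicase activation (2.76) and lowest for the MCM ring (1.59) and nucleotide supply (1.18). The cells also differ in culture medium and passage. Of 8 macrophage markers, 7 were lower in WT iPSC and in WT ESC than in WT MEF, and their summed level was 14.4 to 85.3 FPKM in WT iPSC and 13.6 to 93.0 in WT ESC, against 575 in both WT MEF samples, with none at 0 there. The part of these in the differences was not tested.

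Gmnn changed most. It had 87.1, 259 and 252 FPKM in WT iPSC, and 92.7, 104, 266 and 193 in WT ESC, against 9.56 and 11.3 in WT MEF. Every pluripotent sample lay far above both fibroblast samples, and the log2 change was 4.42 ± 0.14 in WT iPSC (limma adjusted p = 1.5e-11). Cdt1, the protein that geminin holds, had 46.9, 29.4 and 36.1 FPKM in WT iPSC and 59.4, 67.2, 32.8 and 28.1 in WT ESC, against 17 and 16.4 in WT MEF, a smaller log2 rise of 0.82 ± 0.14 in WT iPSC. The ratio of Gmnn to Cdt1 FPKM was therefore 1.55 to 8.81 in WT ESC and WT iPSC, against 0.563 and 0.691 in WT MEF. Rfc4 had 45.5, 169 and 152 FPKM in WT iPSC, against 7.45 and 9.12 in WT MEF (log2 3.98 ± 0.22). Mcm10 had 52.6, 87.7 and 91.8 FPKM in WT iPSC, against 5.30 and 7.00 in WT MEF (3.63 ± 0.15, and 3.19 on fragments in edgeR). Gins1 and Rpa3 followed, with log2 changes of 3.46 ± 0.11 and 3.32 ± 0.15. These genes were far above fibroblast level in every pluripotent sample. Orc1 had 26.7, 25.7 and 25.3 FPKM in WT iPSC and 21.1 to 27.6 in WT ESC, against 4.29 and 3.33 in WT MEF, a log2 rise of 2.48 ± 0.13 in WT iPSC.

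At the other end stood Rrm1, Chaf1a and Orc4. Rrm1, the large subunit of ribonucleotide reductase, had 49.4, 55.4 and 54.9 FPKM in WT iPSC, against 48.1 and 47.9 in WT MEF. Its rise of 0.18 ± 0.08 (limma adjusted p = 0.049) was lost in 8 of the 12 alternatives, among them batch JI alone (0.13), whereas its partner Rrm2 (140, 132 and 113 FPKM in WT iPSC, against 52.9 and 55.5 in WT MEF) rose by 1.18 ± 0.10. Orc4 had 37.0, 76.4 and 72.8 FPKM in WT iPSC, against 50.1 and 54.2 in WT MEF. Its AC sample was below the fibroblasts, and its call (0.42 ± 0.16, limma adjusted p = 0.027) was lost without any 1 of WT iPSC 2 or 3 or WT MEF 1 or 2 (0.055 to 0.13) and without the batch term (0.63). Chaf1a had 25.2, 14.5 and 16.6 FPKM in WT iPSC, against 11.2 and 12.2 in WT MEF, and rose by 0.38 ± 0.09 on the log2 scale. For Pole, with 34.4, 36.0 and 33.6 FPKM in WT iPSC, against 4.87 and 5.18 in WT MEF, the log2 change was 2.60 ± 0.22 on FPKM but 1.09 on fragments in edgeR. The fragments behind 1 unit of its FPKM varied 4.59-fold between libraries. Such variation exceeded 1.5-fold for 7 of the 47 genes (Pole, Pold1, Gins2, Mcm10, Lig1, Orc4 and Rfc5), as it did for 1552 of 9143 genes with an FPKM of at least 1 in all samples. All 7 were also higher in WT iPSC on fragments in edgeR with TMM. With DESeq2 size factors Orc4 was not called (0.21, adjusted p = 0.052). It had 57, 63.4 and 59.1 fragments per M in WT iPSC, against 68.6 and 68.8 in WT MEF, and was thus lower on that scale.

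**Figure D5:**
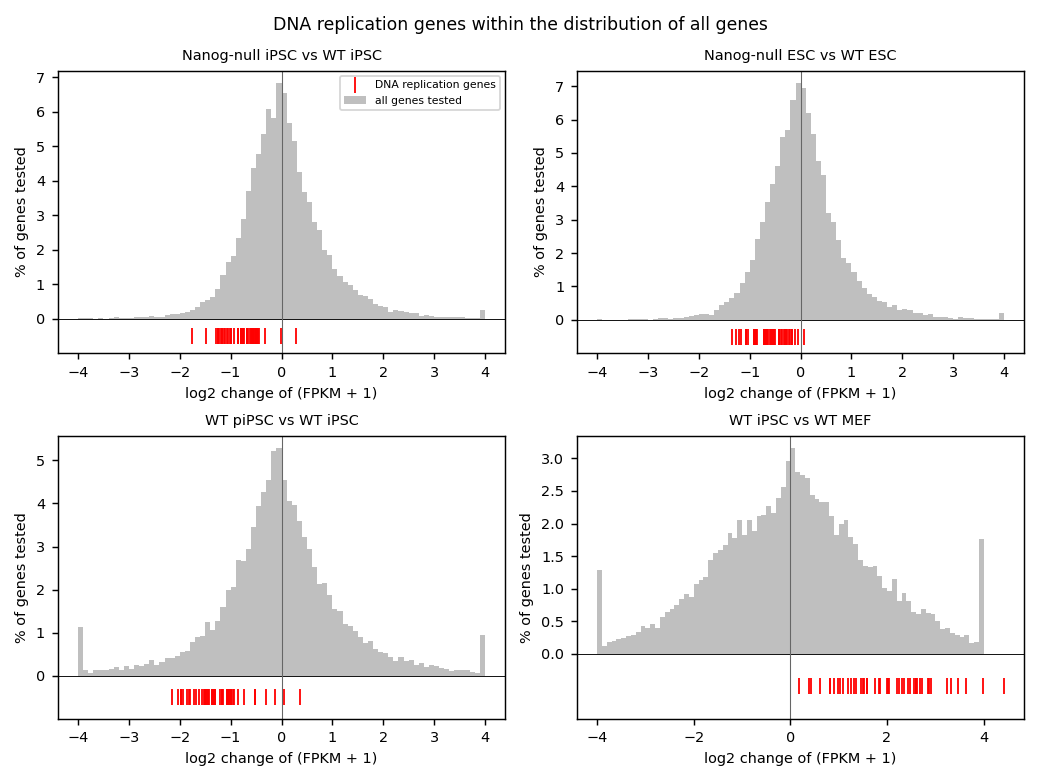
Histograms give the percentage of all 15298 tested genes per 0.1 of log2 change in 4 comparisons, with end bars holding genes at or beyond 4, and red ticks mark the 47 replication genes. The ticks sit left of the bulk in the comparisons of Nanog-null and piPSC cells with their WT counterparts (medians -0.73, -0.66 and -1.31) and right of it in WT iPSC against WT MEF (2.02).

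Fully reprogrammed cells were then set against ESC. None of the 47 genes passed in limma, where 1.02% of all genes did, and 4 had an unadjusted p under 0.05. On fragments, edgeR called 2 with TMM and 1 with DESeq2 size factors. The median log2 change was 0.04, beside 0.01 over all genes. The 95% intervals of the log2 difference were -0.19 to 0.13 for Mcm6, -0.19 to 0.20 for Pcna, -0.21 to 0.28 for Gmnn, -0.13 to 0.32 for Orc1 and -0.35 to 0.13 for Cdt1. Gins3 had the largest difference, -0.42 (-0.65 to -0.20, limma adjusted p = 0.070), with 5.44, 6.88 and 7.03 FPKM in WT iPSC, against 9.44, 8.79, 9.23 and 7.97 in WT ESC. Its samples did not overlap. Mcm2 had an interval of 0.06 to 0.35. In batch AC alone, where WT iPSC is 1 sample assumed to vary like the other groups, 21 genes passed (40.5% of all genes did), and in batch JI alone 0 did.

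Within the Nanog-null lines, 6 of the 47 genes were lower in iPSC than in ESC and 0 higher, where 4.62% of all genes were lower and 6.19% higher. Mcm6 (54.0 to 57.4 FPKM in Nanog-null iPSC, against 72.6 and 73.8 in Nanog-null ESC) changed by -0.40 and Mcm2 (53.2 to 58.6, against 71.9 and 74.7) by -0.39 on the log2 scale (limma adjusted p = 0.0072 and 0.0055). Cdc45 (-0.37, limma adjusted p = 0.015), Rrm2 (-0.35, 0.028), Pola1 (-0.35, 0.045) and Chaf1a (-0.31, 0.026) were the others. None of the 6 overlapped between the groups, and 21.7% of all genes were lower in all 4 iPSC samples. The count was 0 without Nanog-null ESC 1, without Nanog-null ESC 2 or without the batch term, 3 without G2 2, 2 without G5 1, and 16 in batch AC alone (29.7% of all genes). Between the clones, 41 of 47 genes had a lower fitted level in G2 than in G5. Their median was -0.16, beside -0.02 over all genes, and 24.6% of all genes lay below it. Only Rrm1 was called, with 32.5 and 32.2 FPKM in G2, against 41.0 and 43.3 in G5 (log2 -0.37 ± 0.08, limma adjusted p = 0.021), where 2.22% of all genes were lower. This call was lost without any 1 of the 4 samples. Of 18 fibroblast markers, 10 were higher in G2 than in G5 (median 0.95), where 820 of 15298 genes were called in either direction. The part of these markers in the lower levels of G2 was not tested.

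The difference between Nanog-null and WT cells was not the same in iPSC and ESC for 3 of the 47 genes, where 11% of all genes differed. For Mcm2 the fall was larger in iPSC by 0.59 ± 0.10 on the log2 scale (limma adjusted p = 0.0031). Cdc45 differed the same way, by -0.49 ± 0.12 (0.018), and Gins3 in the other direction, by 0.57 ± 0.16 (0.035). The calls for Cdc45 and Gins3 were lost when single samples were left out, Cdc45 without Nanog-null ESC 1 (0.12) or 2 (0.051), and Gins3 with 9 of 13 samples tried (0.062 to 0.17). Mcm2 kept its call without any single sample and lost it without the batch term (-0.46, limma adjusted p = 0.90).

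Between the batches, fitted on WT ESC and WT iPSC, 10 of the 47 genes were higher and 24 lower in AC than in JI, where 34.4% of all genes were higher and 38% lower, so the share called was near that of all genes. Rfc4 changed by -1.36, Gmnn by -1.34 and Rfc2 by -1.17 on the log2 scale, and Pola1 by 0.84, Cdt1 by 0.83, Rpa1 by 0.80 and Mcm2 by 0.77. Gmnn and Cdt1 therefore moved apart, and their ratio was 1.55 to 1.86 in the AC libraries of these groups, against 6.88 to 8.81 in the JI libraries. The mean FPKM of MCM2-7 did not show such a split, at 137 to 143 in AC, against 126 to 139 in JI. Its subunits did, in opposite directions: Mcm2, Mcm3, Mcm4 and Mcm5 were higher in AC and Mcm6 and Mcm7 lower, without overlap. The ratio of the highest to the lowest MCM subunit was 1.99 to 2.42 in AC, against 3.29 to 3.99 in JI. The share of fragments taken by the 47 genes, given above, was higher in AC, while their median FPKM was lower in AC, so the 2 scales go opposite ways between batches.

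Other genes of the replication machinery moved in the same direction. Of 37 further replication genes tested, 29 fell and 1 rose in Nanog-null iPSC (median log2 -0.74), 24 fell and 2 rose in Nanog-null ESC (-0.53), 26 fell and 4 rose in piPSC (-0.84), and 28 rose and 5 fell in WT iPSC against WT MEF (1.35). Of all genes, 28.7% fell in Nanog-null iPSC, 26.4% in Nanog-null ESC and 34.2% in piPSC. Against WT MEF, 41.4% of all genes rose in WT iPSC. Ticrr, which brings Cdc45 to the loaded helicase, had 6.96 to 7.75 FPKM in Nanog-null iPSC, 9.43 and 9.67 in Nanog-null ESC and 4.24 and 4.49 in piPSC, against 76.0 (AC), 2.54 and 2.99 (both JI) in WT iPSC and 35.1 and 36.3 (AC) and 2.82 and 3.50 (JI) in WT ESC. It was below the AC samples and above the JI samples, and its falls of 2.72 ± 0.22 in Nanog-null iPSC, 2.04 ± 0.23 in Nanog-null ESC and 3.36 ± 0.25 in piPSC on the log2 scale were lost without the batch term (-0.30, -0.23 and -0.94, limma adjusted p = 0.83, 0.90 and 0.54). Pold4, the small polymerase delta subunit, had 12 to 14.7 FPKM in Nanog-null iPSC and 29.2 and 36.4 in piPSC, against 3.23 (AC), 35.9 and 40.7 (both JI) in WT iPSC, and 10.6 and 9.48 in Nanog-null ESC, against 5.54 and 4.77 (AC) and 45.2 and 27.2 (JI) in WT ESC. Its rises in Nanog-null iPSC (1.5 ± 0.21), Nanog-null ESC (0.97 ± 0.21) and piPSC (2.73 ± 0.23) likewise held against the AC samples and were lost without the batch term (-0.38, -0.43 and 0.85, limma adjusted p = 0.72, 0.75 and 0.48), where both Nanog-null values turned direction. Pole4, a small polymerase epsilon subunit, fell by 2.27 ± 0.13 in piPSC. Among 18 homologous recombination and Fanconi genes, 17 fell in Nanog-null iPSC, 17 in Nanog-null ESC and 15 in piPSC, and 16 rose in WT iPSC against WT MEF. Fancd2 and Fanci, the pair that marks stalled forks, fell by 1.70 ± 0.18 and 1.61 ± 0.14 in Nanog-null iPSC.

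Genes of mitosis and of the G1/S switch were read beside them. Of 29 mitosis genes, 27 fell in Nanog-null iPSC (median -1.03), 22 in Nanog-null ESC (-0.48) and 26 in piPSC (-1.48, with 1 higher), and 26 rose in WT iPSC against WT MEF (2.59). Of all genes tested, 28.7% fell in Nanog-null iPSC, 26.4% in Nanog-null ESC and 34.2% in piPSC. Against WT MEF, 41.4% of all genes rose in WT iPSC. Nusap1 and Bub1, a spindle protein and a checkpoint kinase, fell by 1.93 ± 0.13 and 1.63 ± 0.14 in Nanog-null iPSC. Mybl2, an activator of late cell cycle genes, fell by 3.88 ± 0.10 in piPSC. Of 24 G1/S regulators 14 fell and 2 rose in Nanog-null iPSC, 12 fell and 5 rose in Nanog-null ESC, and 12 fell and 8 rose in piPSC. E2f1 fell by 1.25 ± 0.11 in Nanog-null iPSC, by 0.68 ± 0.11 in Nanog-null ESC and by 1.77 ± 0.12 in piPSC. Other E2F genes did not all follow E2f1 in piPSC. E2f3 had 18.5 and 21.4 FPKM there, against 13.8 (AC), 2.6 and 2.07 (both JI) in WT iPSC. E2f2 had 8.34 and 7.37 FPKM, against 3.27 (AC), 0.348 and 0.918 (both JI). E2f4, E2f5, E2f7 and E2f8 were lower in both piPSC samples than in every WT iPSC sample, and E2f6 overlapped. The cyclin E gene Ccne2 had 2.98 to 5.32 FPKM in Nanog-null iPSC, against 16.2 (AC), 4.88 and 4.08 (both JI) in WT iPSC, and its fall of 1.52 ± 0.22 was lost without the batch term (-0.71, limma adjusted p = 0.16). The cyclin D genes went different ways. Ccnd2 rose by 1.40 ± 0.26 in Nanog-null iPSC and by 2.20 ± 0.26 in Nanog-null ESC and was not called in piPSC (0.17 ± 0.29, limma adjusted p = 0.64). Ccnd1 rose by 3.41 ± 0.22 in piPSC, and had 15.1 to 19.7 FPKM in Nanog-null iPSC, against 29.9, 35.0 and 33.4 in WT iPSC, with no call (-0.33 ± 0.19, limma adjusted p = 0.16). Ccnd3, chosen after its values were seen, fell by 0.72 ± 0.08 in Nanog-null iPSC, by 0.56 ± 0.08 in Nanog-null ESC and by 0.38 ± 0.09 in piPSC. Of 7 CDK inhibitor genes tested, 4 rose and 1 fell in Nanog-null iPSC. In Nanog-null ESC and in piPSC, 3 rose and 1 fell. Of all genes, 28.7% rose in Nanog-null iPSC, 27.4% in Nanog-null ESC and 30.5% in piPSC. Cdkn1c (p57) had 24.0, 22.6, 61.6 and 52.1 FPKM in Nanog-null iPSC, against 6.91, 10.5 and 12.8 in WT iPSC, and rose by 2.88 ± 0.30 (limma adjusted p = 4.3e-06). Cdkn1a (p21) had 160, 159, 103 and 102 FPKM, against 76.7, 94.6 and 92.1 in WT iPSC, and rose by 0.88 ± 0.12. All 4 Nanog-null iPSC samples were above WT iPSC for both genes. WT MEF had 31.2 and 29.6 FPKM of Cdkn1c, above clone G2 but below clone G5 and Nanog-null ESC (60.5 and 53.3). Levels in WT MEF were 152 and 160 FPKM for Cdkn1a and 96.6 and 94.4 for Ccnd2. The part of fibroblast RNA in the rises of these 3 genes was not tested.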

How the data were processed

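RNA-seq of 17 mouse samples in 7 groups was analysed. Per the labels' protocols, about 250 ng of total RNA with a RIN above 7.5 went into TruSeq v2 libraries, with HiSeq sequencing at separate sites. Named in the submitters' processing notes are CASAVA, TopHat2 2.0.7, Bowtie2 2.0.5, Cuffdiff 2.1.1 and the builds mm10 and NCBIM37 with no role, so the files gave no coordinates. Per the file headers, the authors' deposited tables hold estimated counts of fragments and FPKM values per gene. Between 96.4% and 98.0% of estimated counts were whole within 0.01, and they were rounded for edgeR.

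Groups and replicate numbers came from the titles and batches from the sample codes. limma 3.58.1 in R 4.3.3 was run on log2(FPKM + 1) of all 17 samples, with 7 group terms, a batch term and 9 residual degrees of freedom. Tested were genes that reached an FPKM of 1 in 2 or more samples (15298 of 28670), and 19 with a failed or too deep status were left out. P-values are two-sided, and those adjusted after Benjamini and Hochberg were called under 0.05. The pseudocount makes fold changes of low genes too small. Each Nanog-null iPSC clone had its own term, which keeps the spread between clones out of p. Alternatives were a pseudocount of 0.1, no filter, edgeR 4.0.16 (quasi-likelihood) with TMM or with DESeq2 1.42.0 size factors, no batch term, a replicate block, each batch alone and leaving out each sample. limma and edgeR were tested on simulated data. No pair of replicates was a duplicate. The chi-square per gene of fragments was 1.58 (WT MEF) to 32.2 (WT ESC 3 and 4) for pairs of the same batch, and 170 to 627 for pairs across batches. These values do not show whether replicates were separate cultures. The members and lists were chosen with earlier results of these data known. Named are 17 members listed with the design, up to 5 called members per comparison with the largest rise or fall and no overlap, members that were not called or lost a call, and up to 3 genes of each other list. Pou5f1, Vim, Tagln, Acta2, Thy1 and the E2F genes other than E2f1 were added after their values were seen. Rif1 was not tested.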

Additional observations from a re-analysis of the deposited data

Results flagged for a closer look

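In WT ESC, the library WT ESC 3 stood far from the other 3 for 3 of the 47 genes. Gins4 had 78.1 FPKM there, against 61.9, 62.5 and 64.6 in the others. Pold1 had 89.6 FPKM, against 36.3, 40.6 and 44.3, and the fragments behind 1 unit of its FPKM varied 2.29-fold between libraries. Chaf1b had 68.6 FPKM, against 46.9, 47.3 and 49.1. Chance alone flags about 1 in 20 groups of like libraries, a rate that need not hold here, where both batches are mixed. The FPKM total of WT ESC 3 was also the highest of the group. It was 1.615e+06, against 6.671e+05, 6.19e+05 and 1.085e+06 in WT ESC 1, 2 and 4.

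The difference between Nanog-null and WT cells was not the same in iPSC and ESC for 3 genes by the interaction term in limma. This term was -0.59 for Mcm2 (adjusted p = 0.0031), -0.49 for Cdc45 (0.018) and 0.57 for Gins3 (0.035) on the log2 scale.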

How the results depend on the processing

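The counts of genes called in the comparisons with WT MEF, of piPSC and of both Nanog-null cell types stayed within 1.5 times under every alternative. Without 1 sample they ran from 45 to 47 (each comparison with WT MEF), 42 to 44 (piPSC), 44 to 44 (Nanog-null iPSC) and 28 to 40 (Nanog-null ESC). The small counts moved. WT iPSC against WT ESC (0) gave 2 (edgeR with TMM), 1 (edgeR with DESeq2 size factors), 3 (replicate block), 21 (batch AC alone) and 0 to 6 without 1 sample (6 without WT ESC 3, 5 without WT ESC 4). The interaction (3) gave 10 in both edgeR fits, 0 without the batch term, 11 with the replicate block, 23 in batch AC alone and 1 to 12 without 1 sample (11 and 12 without WT ESC 3 and 4, 5 without WT iPSC 1, 1 without either Nanog-null ESC sample). Clone G2 against G5 (1) gave 3 with DESeq2 size factors, 0 without the batch term, 6 with the replicate block, 10 in batch AC alone and 0 to 0 without 1 sample. Nanog-null iPSC against ESC (6) gave 0 without the batch term, 16 in batch AC alone and 0 to 4 without 1 sample. Batch AC against JI (34) gave 27 to 37. The cause was not tested.

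Reversed were 11 single values of the 47 genes and 3 of other genes. In AC against JI these were Pold1 (0.10 with TMM, 0.07 with DESeq2 size factors), Pole (1.24, 1.22), Lig1 (0.46, 0.43) and, without WT iPSC 1, Prim2 (0.27). In batch AC alone they were Prim2 in Nanog-null iPSC (0.30), Rfc4 (-0.34) and Chaf1b (-0.23) in WT iPSC against WT ESC, and Rfc4 in the interaction (0.26). Of the other genes, Pold4 turned without the batch term in Nanog-null iPSC (-0.38) and ESC (-0.43), and Ccnd1 without WT iPSC 1 in Nanog-null iPSC (0.31, where leaving out each sample gave -0.41 to 0.31). Replicate numbers did not pair the samples: 37 same-numbered pairs had correlations of -0.13 to 0.11, 2 of them over 0.1. The median of all genes in piPSC shifted to -0.17 with TMM, where the 47 genes had -1.42.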
